A study of Mus musculus with 4 samples.

Results

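The genes described here are 9 homeobox genes of the TALE class, Meis1, Meis2, Meis3, Pbx2, Pbx3, Pbx4, Pknox1, Pknox2 and Tgif1, in naive mouse embryonic stem cells with a higher or a lower level of the long noncoding RNA Lncenc1. They were chosen by symbol, matched through the Ensembl identifier without its version, and are 9 of the 19840 genes in the authors' deposited table. The choice was made with the fold changes of these genes known, so the comparison below describes them and is no independent test of them.

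The cells were mouse embryonic stem cells cultured as naive cells in 2i/LIF, which pairs inhibitors of differentiation kinases with the cytokine LIF. Every group carried a lentivirus with a pLKO.1 hairpin (plko.1 in the labels) and was kept in puromycin for 2 days. The 2 shCtrl libraries had a control hairpin and the 2 shLincenc1 libraries a hairpin against Lncenc1. The protocols name the lines E14TG2a and R1 and more than one hairpin per target, and the labels tie no library to a line or a hairpin. Whether replicate libraries stem from different cultures is not stated either, so the spread that the p-values rest on may be technical only. The table gives 1 fold change per gene and does not name its numerator. The numerator group is called Lncenc1-high here, since Lncenc1 was 6400 and 7250 normalized reads in its libraries (H1 and H2) against 2126 and 2121 in those of the other group (L1 and L2, Lncenc1-low). Should the hairpin have reduced Lncenc1, the Lncenc1-low libraries are those labelled shLincenc1, and Lncenc1 itself then cannot check the labels. A normalized read is a read count divided by the authors' size factor for the library. The counts of each library, worked back from the means, summed to 26185390 (H1), 10852937 (H2), 10996696 (L1) and 10464474 (L2) reads, so a value in H1 rests on more reads.

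TALE proteins are transcription factors whose homeodomain carries an extra loop of amino acids. MEIS and PKNOX (also called PREP) proteins bind PBX proteins, and the complexes act with HOX proteins and other factors at developmental genes. TGIF proteins are repressors that limit transforming growth factor beta and retinoic acid signalling. MEIS genes are known as targets of retinoic acid in differentiating stem cells and as regulators of limb, eye, heart and blood development.

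Meis2 was the 1 member whose level differed between the groups at an adjusted p under 0.05. The other 8 did not pass, with fold changes in both directions. Over all 14070 genes with an adjusted p, 1.53% were called in either direction, 0.505% as higher in the Lncenc1-high group and 1.02% as higher in the Lncenc1-low group. At an unadjusted p under 0.05 the share was 8.82%, and Meis2 was again the 1 member that passed. The choice of members used this contrast, so nothing is read from 1 of 9 against that share. The median log2 fold change of the 9 members was -0.0092 in the authors' deposited table, beside -0.0054 over all tested genes. In 4 members the libraries of the groups did not overlap. Meis1, Meis2 and Meis3 (3 genes) were higher in the Lncenc1-high group and Pbx3 (1 gene) in the Lncenc1-low group. Of all tested genes 41.3% had no overlap (20.6% higher in the Lncenc1-high group and 20.7% in the other).

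The promoter of Meis2 is shown because Meis2 carries the difference, and that of Meis1 because it is its paralog at a similar mean level that was not called. Both are RefSeq sequences of build GRCm38.p6, 300 bases around the annotated start, at chr2:116064570-116064869 (minus strand) and chr11:19018920-19019219 (minus strand). They are written 5′ to 3′ with CG dinucleotides in capitals.
Meis2: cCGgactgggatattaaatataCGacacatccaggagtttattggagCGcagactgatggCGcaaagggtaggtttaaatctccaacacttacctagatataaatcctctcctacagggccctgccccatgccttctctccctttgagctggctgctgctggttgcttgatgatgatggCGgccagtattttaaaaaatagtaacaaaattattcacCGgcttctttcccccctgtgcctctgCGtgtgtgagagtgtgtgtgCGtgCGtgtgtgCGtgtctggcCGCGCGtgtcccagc
Meis1: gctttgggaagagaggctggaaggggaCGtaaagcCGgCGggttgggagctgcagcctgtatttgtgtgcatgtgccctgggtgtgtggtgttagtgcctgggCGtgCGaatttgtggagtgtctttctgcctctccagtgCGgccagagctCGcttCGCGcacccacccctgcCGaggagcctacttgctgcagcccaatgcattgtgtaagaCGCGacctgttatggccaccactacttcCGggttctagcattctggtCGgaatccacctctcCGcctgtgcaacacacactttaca
The Meis2 window holds 13 CG dinucleotides and the Meis1 window 15, against a median of 7 over 32851 RefSeq promoter windows of the same length. RefSeq windows matched 6 of the 9 members, Meis1, Meis2, Meis3, Pbx2, Pbx4 and Tgif1. The Meis3 window holds 21 CG dinucleotides, that of Pbx2 29, that of Pbx4 19, and the windows of the 5 annotated starts of Tgif1 from 2 to 23. The MEIS and TGIF core motif TGACAG, searched on both strands, is present in 19.2% of all windows and in 2 of the 5 windows of Tgif1, and these letters are in none of the windows of the other 5 matched members. The motif TGATTG, a PBX core, is present in 4613 of the 32851 windows, in that of Pbx4 and in 1 of those of Tgif1.

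Meis2, a MEIS factor of neural crest, heart and forebrain development, had 295 normalized reads in H1, 227 in H2, 71.5 in L1 and 61.8 in L2. Both Lncenc1-high libraries lay far above both Lncenc1-low libraries, and within a group the libraries differed by at most 1.30-fold. The means were 261 ± 48.2 (SD, n = 2) and 66.6 ± 6.85 (SD, n = 2) normalized reads. The authors' deposited table gives Meis2 (ENSMUSG00000027210.19) a log2 fold change of 1.97 ± 0.39 (SE), which is 3.93-fold higher in the Lncenc1-high group, with a DESeq2 adjusted p of 0.000185. By the size of its Wald statistic, the fold change over its error, Meis2 ranks 41 among the 14070 tested genes. Limma voom on the recovered counts, which called 0.0427% of genes, gave Meis2 a log2 fold change of 2.01 with an adjusted p of 0.168. A negative binomial refit without H1, which called 0.386% of genes, gave 1.77 ± 0.48 (SE) with an adjusted p of 0.0535. Meis2 was called, as the 1 member, without H2 (0.549% of genes called), without L1 (1.38%), without L2 (0.321%), with library totals as scaling (1.65%), without a filter on low means (0.897%) and in the refit of all libraries (1.45%). It is thus called by the deposited test and not by voom or without H1, and its direction is the same in each. The refit of all libraries takes its dispersion from the deposited SE, and the adjustment without a filter reuses the deposited p-values. The calls and direction of Meis2 in that refit and that adjustment repeat the deposited test and are no separate check. Scaling by library totals and the fits without 1 library use the same dispersion, which rests on every library. Their calls of Meis2 are thus not independent of the deposited test. In bulk RNA, fewer cells with a transcript and less of it per cell cannot be told apart, here and for each gene below.

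Meis1, the paralog known from blood stem cells and leukaemia, had 124 normalized reads in H1, 96.6 in H2, 81.3 in L1 and 96.4 in L2. H2 and L2 were nearly equal, so the groups were separated by the width of that gap. The authors' deposited table gives Meis1 a log2 fold change of 0.32 ± 0.46 (SE), with a 95% interval from -0.59 to 1.22 and a DESeq2 adjusted p of 0.988. Exons of Meis1 overlap other annotated genes, over 1029 bases on its own strand and 896 on the opposite strand out of 10532, and whether the counting used strand is not stated in the labels. Exons of Meis2 and Meis3 overlap no other gene in the annotation used for this (GENCODE M21). Those of Pbx2 share 227 bases with another gene on the same strand and those of Pknox1 155 with one on the opposite strand. Meis3, a MEIS factor of hindbrain patterning, was the least read member. It had 50 reads in H1, 21 in H2, 18 in L1 and 5 in L2, which are 25.7, 26.3, 22.2 and 6.18 normalized reads. L2 alone was low, and L1 was close to both Lncenc1-high libraries. The authors' deposited table gives Meis3 0.87 ± 1.01 (SE) on the log2 scale with a DESeq2 adjusted p of 0.98, and without L2 the refitted value was 0.23.

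**Figure D1:**
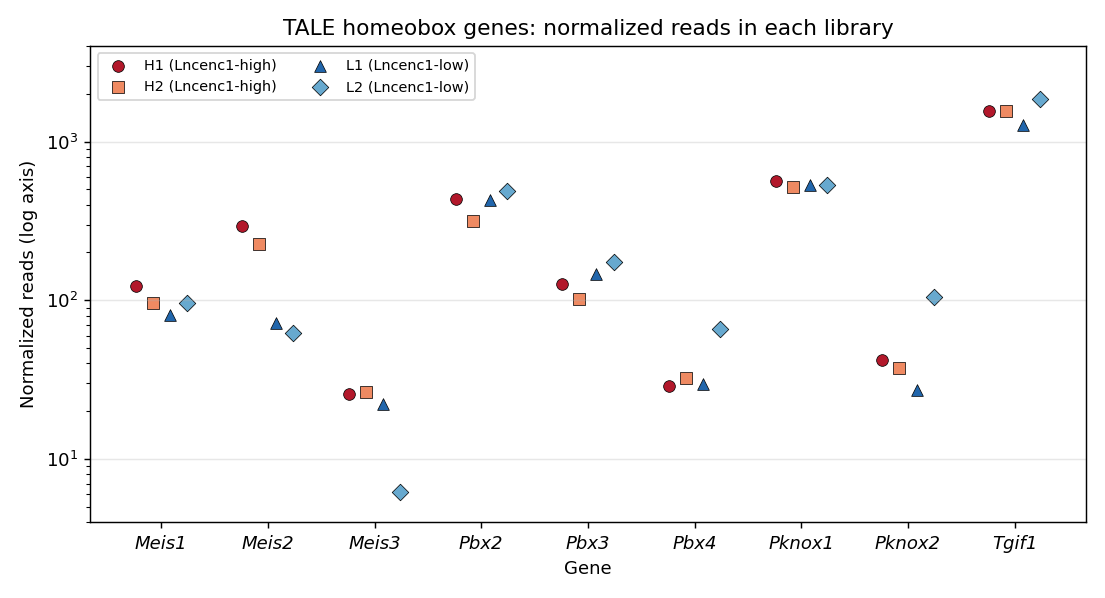
Normalized reads (log axis) of the 9 genes in each of the 4 libraries, red for Lncenc1-high (H1, H2) and blue for Lncenc1-low (L1, L2). Meis2 has 295 and 227 in the red points against 71.5 and 61.8 in the blue ones, while L2 stands apart for Meis3, Pbx4 and Pknox2.

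The 3 MEIS genes together had 445 and 350.0 normalized reads in the H libraries and 175 and 164 in the L libraries, 2.34-fold more on average in the Lncenc1-high group. The makeup of these reads also differed between the groups. Meis2 had 66.4% of the 866 MEIS reads in H1 (exact 95% interval 63.1 to 69.5%) and 64.9% of 279 in H2 (59.0 to 70.5%). In L1 it had 40.8% of 142 (32.7 to 49.4%) and in L2 37.6% of 133 (29.3 to 46.4%). The intervals, which cover counting error only, do not overlap between the groups. Per kilobase of exon the share of Meis2 in the MEIS level was 55.3% and 51.9% in H1 and H2, and 28.7% and 31.6% in L1 and L2, so on this scale Meis2 held most of the MEIS level in the Lncenc1-high libraries and not in the others. These shares are another form of the same Meis2 difference and add no independent evidence for it.

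**Figure D2:**
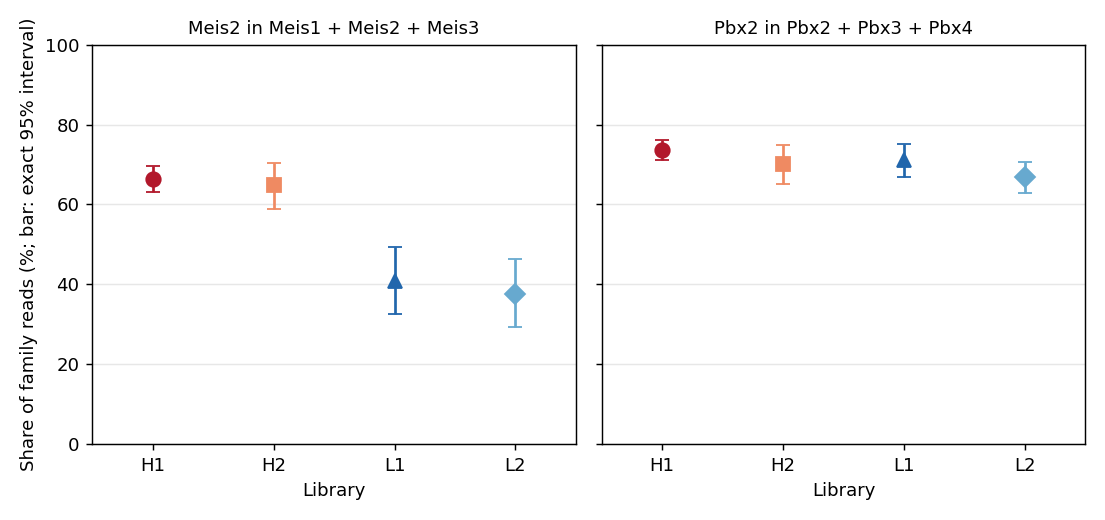
Share of a family's reads (percent, with exact 95% binomial intervals) held by Meis2 among the MEIS genes, left, and by Pbx2 among Pbx2, Pbx3 and Pbx4, right, in each library. Meis2 holds 66.4% and 64.9% in H1 and H2 and 40.8% and 37.6% in L1 and L2, and Pbx2 lies at 73.7% and 70.2% against 71.1% and 66.8%.

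Pbx2, Pbx3 and Pbx4 code for partners of MEIS and PKNOX proteins, and none of these 3 was called. Pbx2, a widely expressed PBX factor, had 433 normalized reads in H1, 316 in H2, 430.1 in L1 and 486 in L2. H2 was lowest, and H1 lay between L1 and L2, so the groups overlapped. The authors' deposited table gives Pbx2 -0.28 ± 0.29 (SE) on the log2 scale, with a 95% interval from -0.85 to 0.28. Pbx3 had 126 and 102 normalized reads in the H libraries and 145 and 175 in the L libraries. Both Lncenc1-low libraries were above both others, and the log2 fold change of Pbx3 in the authors' deposited table, -0.49 ± 0.41 (SE), has an adjusted p of 0.903 from DESeq2. Pbx4, known for its expression in the testis, had 28.7 normalized reads in H1, 32.6 in H2, 29.6 in L1 and 65.5 in L2. Only L2 was high. The log2 fold change of Pbx4 in the authors' deposited table was -0.64 ± 0.73 (SE), and without L2 it was 0.05.

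Pbx2, Pbx3 and Pbx4 together had 588 normalized reads in H1, 450.4 in H2, 605 in L1 and 727 in L2. Both L libraries were above both H libraries, with L1 close to H1. Pbx2 held most of these reads in each library, with 73.7% in H1 (exact 95% interval 71.1 to 76.2%), 70.2% in H2 (65.2 to 74.9%), 71.1% in L1 (66.8 to 75.1%) and 66.8% in L2 (62.9 to 70.6%). These shares overlapped between the groups.

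Pknox1, the PKNOX gene required early in the embryo, was the most even member. It had 563 normalized reads in H1, 514 in H2, 534.8 in L1 and 535.1 in L2. Both Lncenc1-low libraries lay between the Lncenc1-high ones. The authors' deposited table gives Pknox1 0.01 ± 0.25 (SE) on the log2 scale, with a 95% interval from -0.48 to 0.50, which leaves differences of up to about 1.41-fold toward the Lncenc1-high group. The sign of this value turned under other scaling. Its relative Pknox2, known from neural and muscle tissue, had 42.1 normalized reads in H1, 37.6 in H2, 27.1 in L1 and 105 in L2. L2 was the highest and L1 the lowest library. The log2 fold change of Pknox2 in the authors' deposited table was -0.73 ± 0.71 (SE), and without L2 it was 0.56.

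Tgif1, a repressor that binds SMAD proteins and retinoid X receptor sites, was the most read member. It had 1549 normalized reads in H1, 1553 in H2, 1275 in L1 and 1846 in L2. Both Lncenc1-high libraries lay between the Lncenc1-low ones, whose 1.45-fold gap was wider. The authors' deposited table gives Tgif1 -0.01 ± 0.23 (SE) on the log2 scale, with a 95% interval from -0.46 to 0.45, and the value was -0.25 without L1 and 0.28 without L2. Its paralog Tgif2 had 619, 546, 652 and 488 normalized reads in H1, H2, L1 and L2, and 0.03 ± 0.26 (SE) in the authors' deposited table. Of the words of 50 bases in Tgif2 transcripts, 18.0% also occur in transcripts of other annotated genes, so reads of Tgif2 are less certain. The same share was 9.16% for Meis1, 4.93% for Pbx2, 0.124% for Meis2 and 0 for the other 6 members, so the reads of Meis1, and with them the MEIS shares, are less certain too. Exons of Tgif2 also overlap other annotation on the opposite strand, over 2360 bases out of 3832, and whether the counting used strand is not stated.

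**Figure D3:**
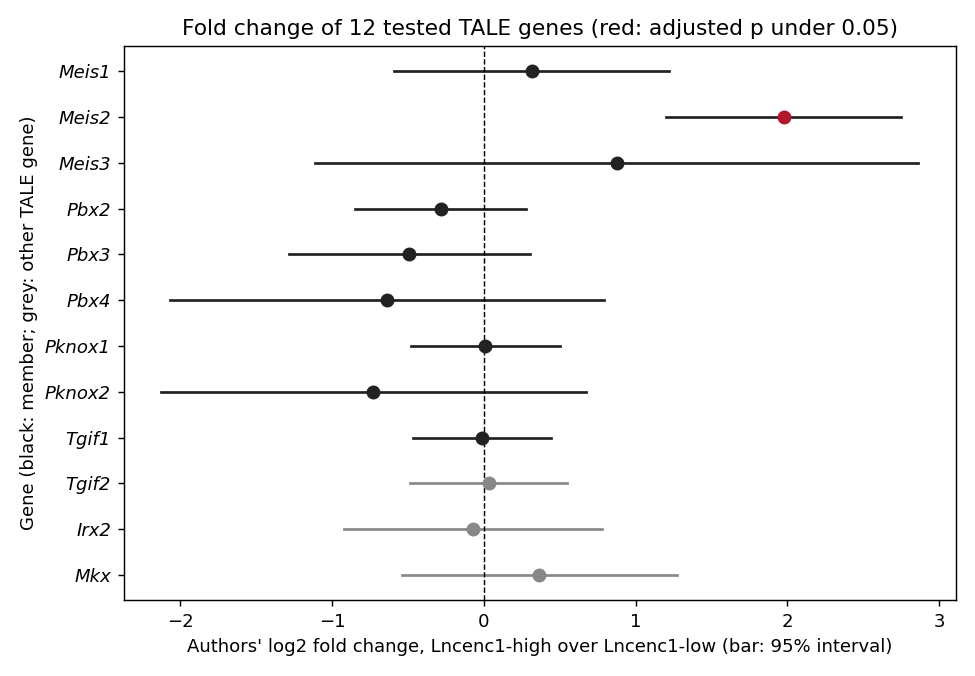
The authors' log2 fold change (Lncenc1-high over Lncenc1-low) with its 95% interval for the 9 genes, black, and for 3 other TALE genes with an adjusted p, grey. The interval of Meis2, 1.202 to 2.75, lies above 0, and the other 11 include 0.

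Which group had the less similar libraries differed among the members. In 5 of them L1 and L2 were closer to each other than H1 and H2, by ratios of 1.19 against 1.28 for Meis1, 1.16 against 1.30 for Meis2, 1.13 against 1.37 for Pbx2, 1.21 against 1.24 for Pbx3 and 1.00 against 1.09 for Pknox1. In the other 4 they were farther apart, among them Tgif1. Meis3, Pbx4 and Pknox2 differed between L1 and L2 by 3.59-fold, 2.21-fold and 3.87-fold, while H1 and H2 differed by at most 1.37-fold in any member. Among 1634 tested genes with a mean between those of Meis3 and Pknox2, 39.7% differed at least 2-fold between L1 and L2 and 22.1% between H1 and H2. Over all 14043 tested genes with recovered counts, 2388 and 1109 did. Without L2 the fitted values of Pbx4, Pknox2 and Tgif1 changed sign, that of Tgif1 from -0.01 to 0.28.

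**Figure D4:**
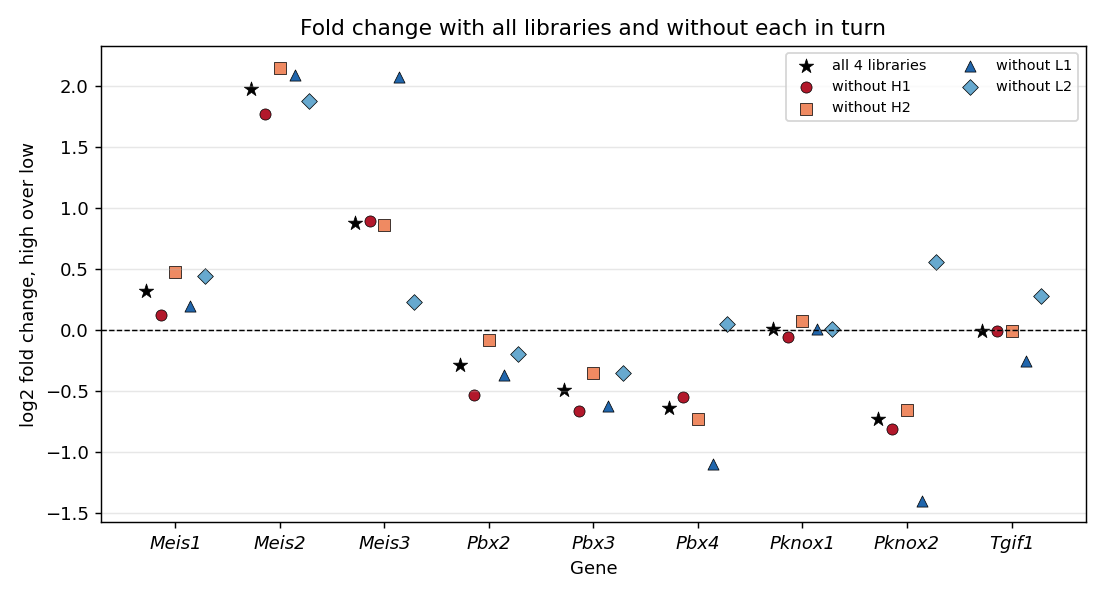
Log2 fold change (Lncenc1-high over Lncenc1-low) of the 9 genes with all 4 libraries (star) and in negative binomial refits without H1, H2, L1 or L2. Meis2 stays between 1.77 and 2.15 in the refits, and Pbx4 and Pknox2 move from -0.64 and -0.73 to 0.05 and 0.56 without L2.

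Levels were compared between genes per kilobase of annotated exon, as the mean over the 4 libraries. Tgif1 was highest at 277 normalized reads per kilobase, followed by Pbx2 at 114 and Pknox1 at 77.4, and the libraries of these 3 did not overlap with those of the next gene in the order. Pbx3 at 22.4, Pbx4 at 17.6, Meis2 at 13.6, Meis1 at 9.45, Meis3 at 6.33 and Pknox2 at 5.13 followed, and each overlapped its neighbour in at least 1 library. The place of Meis2 in this order depended on the group. It had 21.7 normalized reads per kilobase on average in the Lncenc1-high group, above Pbx3 at 18.6, and 5.53 in the Lncenc1-low group, below Meis1 at 8.44. The exon lengths come from GENCODE M21 on GRCm38, a later build than the mm9 named in the submitters' processing notes.

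Of 10 more TALE genes listed, 7 had a row and 3 were abundant enough for an adjusted p, Tgif2, Irx2 and Mkx. DESeq2 in the authors' deposited table called 0 of the 3, with 0 at an unadjusted p under 0.05, and voom and the refit of all 4 libraries also called 0. Irx2, an Iroquois factor, had -0.07 ± 0.43 (SE) on the log2 scale and Mkx, a tendon regulator, 0.37 ± 0.46 (SE) in the authors' deposited table. Irx1, Irx3, Irx4 and Irx5 had 6, 6, 5 and 10 reads over the 4 libraries together and are not compared. Tgif2lx1, Tgif2lx2 and Irx6 were not analysed here.

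Lists of genes that work with TALE factors were read against the shares over all tested genes, 1.53% called and 8.82% at an unadjusted p under 0.05. In lists this short, 0 called is near the first share. Of the 39 HOX genes, whose products bind DNA with PBX and MEIS, 29 had a row and 14 an adjusted p. DESeq2 in the authors' deposited table called 0, with 2 at an unadjusted p under 0.05, and voom and the refit called 0. The median log2 fold change of the 14 was 0.36, with 10 above 0 and 4 below. Hoxd9 had 27.2 and 32.6 normalized reads in the H libraries and 6.16 and 3.71 in the L libraries, and Hoxc11 43.6 and 31.4 against 16.02 and 2.47. Their values did not overlap between the groups, with DESeq2 adjusted p of 0.362 and 0.557 in the authors' table. These 2 were named for the largest Wald statistics of the list, which favours such a gap. In L1 and L2 they rest on 5 and 3 reads (Hoxd9) and on 13 and 2 reads (Hoxc11). Of the 14, 8 overlapped, 5 were apart and higher in the Lncenc1-high group, and 1 was apart and higher in the other. Of all tested genes 41.3% were apart.

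Of 19 genes of retinoic acid supply, binding and breakdown 13 had an adjusted p. DESeq2 in the authors' deposited table called 0, with 2 at an unadjusted p under 0.05, and voom and the refit called 0. Their median log2 fold change was 0.013, with 7 above 0 and 6 below, and a range from -1.95 to 2.11. Dhrs3, which reduces retinal and is induced by retinoic acid, had 61.6 and 50.2 normalized reads in the H libraries and 11.1 and 14.8 in the L libraries, with a log2 fold change of 2.11 ± 0.77 (SE) and an adjusted p of 0.201 from DESeq2. Crabp1, a retinoic acid binding protein of the cytosol, had 255 and 227 against 187 and 49.4 normalized reads, and its adjusted p from DESeq2 was 0.529. Of 11 tested partners and cofactors of MEIS and PBX (median 0.010, with 6 above 0 and 5 below) DESeq2 called 0, with 0 at an unadjusted p under 0.05, and of 13 tested TGIF partners (median -0.017, with 6 above 0 and 7 below) it called 0, with 1 at an unadjusted p under 0.05. Voom and the refit called 0 in both lists. That 1 gene was Skil, a SMAD corepressor, with 1757 and 1589 normalized reads in the H libraries and 1099 and 1137 in the L libraries and a DESeq2 adjusted p of 0.164. The histone deacetylase gene Hdac1 and the pluripotency factor Klf4 had 0.43 ± 0.22 (SE) and 0.31 ± 0.20 (SE) in the authors' deposited table.

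The genes whose values over the 4 libraries lay nearest to those of Meis2 were sought among the 11005 genes whose mean reached 50 normalized reads. The measure was the Euclidean distance of log2(normalized reads + 1), each gene centred on its own mean. Susd1 was nearest at 0.262, with 599.6 and 578 normalized reads in the H libraries and 179.9 and 139.7 in the L libraries. Maml2, a coactivator of Notch signalling, followed at 0.278, Igfbp4, a binding protein of insulin-like growth factors, at 0.405, Tmc7 at 0.436 and Hdac7, a histone deacetylase, at 0.437. With only 4 libraries this order is a description. All 5 had both Lncenc1-high libraries above both Lncenc1-low ones, as the measure favours, and the authors' deposited table gives Igfbp4 an adjusted p of 0.0551 and calls the other 4.

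**Figure D5:**
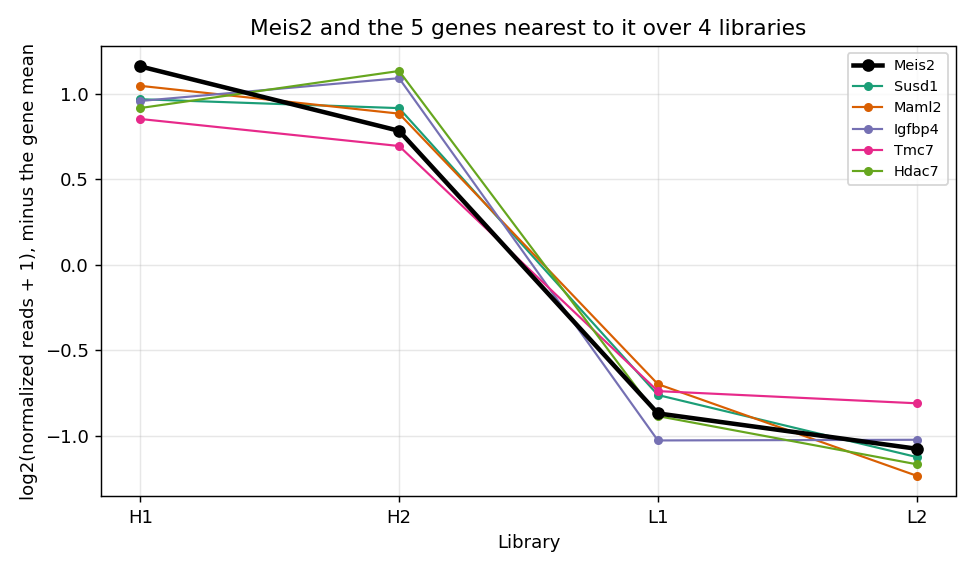
Log2(normalized reads + 1) minus the gene's mean, in each of the 4 libraries, for Meis2 (black) and the 5 genes nearest to it. All 6 lines are high in H1 and H2 and low in L1 and L2, and the distances from Meis2 run from 0.262 for Susd1 to 0.437 for Hdac7.

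Markers of cell identity were set beside these values. All 7 markers of naive stem cells were detected in every library, with 0 of 7 called, beside 1.53% of all tested genes. The log2 fold change of all 7 was above 0, with a median of 0.30. In 6 of them the groups did not overlap and the Lncenc1-high group was higher, as in 20.6% of all tested genes. They summed to 69741 and 66295 normalized reads in H1 and H2 and to 59642 and 56549 in L1 and L2. The 5 mesoderm markers summed to 211 and 516 against 123 and 95.2. T, the mesoderm factor brachyury, held most of the H sums, with 162 and 427 against 70.2 and 37.1. It was called by DESeq2 and not by voom. Eomes, the other tested marker of this list, had 41.6 and 72.8 against 50.5 and 48.2, so its groups overlapped. Mixl1 and Mesp1 had 0 reads in both Lncenc1-low libraries. The 4 trophoblast markers summed to 81.6 and 161 against 56.7 and 68.0, with Hand1 at 0 reads in H1, H2 and L2 and Elf5 not analysed here. Among them Cdx2 had 40.04 and 87.8 normalized reads in the H libraries and 2.46 and 19.8 in the L libraries. Its L values rest on 2 reads in L1 and 16 in L2. The groups of Cdx2 did not overlap, as in 41.3% of all tested genes, and its DESeq2 adjusted p was 0.177. Eomes, whose groups overlapped, is the other tested marker of this list too. The 4 primitive endoderm markers summed to 34.4 and 32.6 against 25.9 and 29.7, with Gata6 and Sox7 at 0 in H2 and 1 of them at 0 in L2. Fibroblast markers summed to less in the H libraries, at 161 and 137 against 375 and 222. Fbn1 held most of these sums, with 140 and 110 against 324 and 174 normalized reads and a DESeq2 adjusted p of 0.320. Of the 3 tested fibroblast markers 0 were called, and 1 overlapped between the groups. Col3a1 was at 0 in H2 and L2, and Postn was not analysed here. The sums of the neural markers overlapped between the groups, from 1079 to 1720 against 723 to 2392. Of the 4 tested neural markers 0 were called and 3 overlapped. The 1 without overlap was Map2, with 110 and 108 normalized reads in the H libraries against 124 and 152 in the L libraries. Among the neural markers, Neurog2 was at 0 in H1 and H2 and Sox1 at 0 in H2. The part of these cell types in the Meis2 difference was not tested.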

How the data were processed

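Each of the 4 libraries, 2 per group, was made from ribosomal-depleted total RNA with a stranded kit, per the labels' protocols. TopHat2, HTSeq, DESeq2 1.8.2 and the build mm9 are listed in the submitters' processing notes. The sources used here give neither the gene annotation nor the strand setting. Per the file headers, the deposited table holds the mean normalized count (a signal that is never negative), the log2 fold change and its SE, the Wald statistic (a score), the p-value with its adjusted form, all computed by the authors. An adjusted p is given for 14070 of 19840 genes, with means of at least 8.36. Symbols matched 19707 genes.

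Counts per library were recovered, which was decided on once the table had been seen. Each mean equals 4 whole counts, multiplied by a fixed step for their library and added. The whole-number combinations giving the mean to 15 significant digits were listed by lattice reduction. A single one was taken if refitting it came within 0.001 of the authors' log2 fold change or a library had 0 reads. Among several, the best was taken if within 0.00001 and at least 10 times closer than the next. This gave 19813 genes (99.9%). The other 27 are abundant, with 13.7% of the summed means, so library totals lack them. Of 14038 refitted genes 13901 matched within 0.00001. For genes with several combinations this match was the rule of acceptance, so for them it is no check. Recovery, refit and voom were tested on simulated data. No count test fixed for deposited counts was run, since the table holds none. The authors' DESeq2 test is the main result, at an adjusted p under 0.05. Alternatives were limma 3.58.1 voom (R 4.3.3), adjustment without a filter, and negative binomial refits at the dispersion implied by each deposited SE. These refits used all libraries, all libraries with scaling by library totals, or left 1 out. With 1 left out, the lone library is assumed to vary like the others.

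The members and lists were chosen with earlier results of these data known. Named were all 9 members, Lncenc1, 10 other TALE genes, of the HOX, retinoic acid and both partner lists the called genes and the 2 with the largest Wald statistic, and the 5 genes nearest to Meis2. The rule did not cover the marker lists: those named (the called gene, Cdx2, Eomes, Fbn1, Map2 and genes at 0 or with no row) were chosen after their values were seen. A further listed gene is not reported here. The depth of 94 to 6784 reads per member sets the precision.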

Additional observations from a re-analysis of the deposited data

How the results depend on the processing

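The authors' test called 215 genes and 1 member. Limma voom called 6 genes and 0 members, with Meis2 at a log2 fold change of 2.01 (adjusted p = 0.168). Fits without 1 library called 45 to 193 genes (L2 left out gave the 45, H1 54, H2 77 and L1 the 193) and 0 to 1 members, the 0 without H1. There the log2 fold change of Meis2 ran from 1.77 (without H1, adjusted p = 0.0535) to 2.15. The adjustment without a filter, scaling by library totals and the refit of all 4 libraries called 178, 231 and 203 genes, and each called 1 member. Signs changed for Pknox1 with library totals (-0.020) and Tgif1 with voom (0.015), and among fits without 1 library, where values ran from -1.10 to 0.049 for Pbx4 (reversed without L2), from -0.057 (reversed without H1) to 0.073 for Pknox1, from -1.39 to 0.56 for Pknox2 (reversed without L2) and from -0.25 to 0.28 for Tgif1 (reversed without L2), none of them called. The cause was not tested, and fits without 1 library have fewer libraries. Of 88 values under alternatives, 74 kept their direction and side of the threshold, or stayed within 1.5 times for counts. The fold changes and SE of the refit of all 4 libraries and of the adjustment without a filter repeat the deposited ones by construction. Their calls of Meis2 are thus no separate check. The 74 therefore include values that could not change direction. Scaling by library totals and the fits without 1 library reuse the dispersions implied by the deposited SE. Their calls are thus not independent of the deposited test either. Scaling by library totals moved the median of all genes by -0.031 on the log2 scale. No paired analysis was possible because the recovered libraries carry no replicate number. Meis3, with 94 reads, and Pbx4, with 159, are limited by depth.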
